A study of Homo sapiens with 6 samples.

Results

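The genes described here are 33 genes of the p53 pathway, from MDM2 and CDKN1A to ZMAT3, measured by RNA-seq in 22Rv1 cells after knockdown of MED12. They are grouped here as targets of the transcription factor p53, and whether p53 acts on each of them in these cells was not tested. They were listed by name with earlier results of these data known, although no measured value entered the rule. All 33 were among the 62703 genes counted, and all 33 were among the 17901 genes expressed highly enough to be tested. 22Rv1 is a human prostate cancer cell line, and it was the only line in this series. Cells were seeded, transfected 24 h later with 25 pmol of a pool of siRNAs using Lipofectamine RNAiMAX, given fresh medium after 6 h and harvested 3 days after transfection. The siCtrl group (n = 3 libraries) received a pool with no human target, and the siMED12 group (n = 3) received a pool against MED12. Both groups thus shared the transfection, the reagent and the dose, and no group was left without transfection. The knockdown is transient and incomplete, so the cells keep part of their MED12. The study's methods describe its replicates in general as biological, while the labels give only a replicate number. Because each library pools the RNA of many cells, a lower level in all cells and a change in fewer cells cannot be told apart. All values are shares of poly(A) RNA and do not give amounts per cell.

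MED12 is a subunit of the kinase module of Mediator, the complex that links transcription factors to RNA polymerase II. p53 is held at a low level by the ubiquitin ligase MDM2 and is stabilised when DNA is damaged or when other stress signals reach it. It then binds pairs of short repeats near its target genes and activates programmes of cell cycle arrest, apoptosis, DNA repair and metabolic adjustment. MDM2 is itself a p53 target, which closes a negative feedback loop. Many of these genes also have other activators and keep a basal level without p53.

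The 6 libraries held between 16136699 and 17012788 counts. All 9 prostate luminal markers checked were expressed. The summed level of these 9 markers was 3452 to 3586 CPM (gene counts scaled to a common library size by TMM) in siCtrl and 3083 to 3209 CPM in siMED12. Of 13 markers of other cell types, 8 stayed below 1 CPM in every library, and CD3E (T cells) and KRT5 (basal epithelium) were at 0 counts in all. The summed level of the 13 was 104 to 139 CPM in siCtrl and 99.3 to 123 CPM in siMED12, mostly from SYP, a neuroendocrine marker, at 77.6 to 107 CPM. MED12 (chrX:71118543-71144103) was measured at 67.8, 77.7 and 72.6 CPM in siCtrl replicates 1 to 3 and at 23.9, 15.0 and 30.1 CPM in siMED12. The groups did not overlap, and the log2 fold change was -1.66 ± 0.23 (SE; adjusted p = 0.0314, edgeR quasi-likelihood test). Libraries sharing a replicate number were alike in their deviations from the group means. Calls are therefore counted in a fit with the treatment alone and in a fit that also held replicate number as a block. Results from both fits are given for most called members, while many other genes have mean levels only.

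The DNA near the 33 genes was searched for the p53 response element, which none of the expression values used. The motif is a pair of 10-base units with no spacer, each with 3 purines, then C, A or T at both central positions, G, and then 3 pyrimidines. A match had to keep the core C and G of both units and could differ at up to 2 of the other positions. The motif is its own reverse complement, so that 1 search covers both strands. Within 2500 bases on either side of the start of the MANE Select transcript (Gencode annotation, GRCh38), 16 of the 33 genes (48.5%) held such a match, against 658 of 17854 tested genes with a gene model (3.69%). With at most 1 mismatch the shares were 21.2% and 0.532%, and within 1000 bases with up to 2 mismatches they were 30.3% and 1.32%. Because the list was made of known p53 genes, a share above that of all tested genes comes with how it was chosen. A match is a run of letters and not a shown binding site, and genes with no match here can have elements elsewhere.

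Matches are shown for the called genes that held one other than RRM2B, for PLK2 as a match without mismatch, and for BAX and BBC3 as central apoptosis genes. Each is read from the reference genome GRCh38 on the strand of its gene, and capitals mark the core C and G of both units. The CDKN1A match (chr6:36676449-36676468, plus strand) lay upstream of the MANE Select start (match centre at -2256 bases) and differed at 2 positions. It overlaps the outer end of the annotated gene, which begins at chr6:36676460. The MDM2 match (chr12:68808923-68808942, plus strand) lay in intron 1, 756 bases downstream of the start, with 2 mismatches. Those of ZMAT3 (chr3:179070188-179070207, minus strand, 0 mismatches), CCNG1 (chr5:163437926-163437945, plus strand, 1 mismatch) and SPATA18 (chr4:52051957-52051976, plus strand, 2 mismatches) were also in intron 1. The AEN match (chr15:88621306-88621325, plus strand, 2 mismatches) was centred 24 bases upstream of the start. The PLK2 match (chr5:58462274-58462293, minus strand) had 0 mismatches and lay upstream (match centre at -2198 bases), and that of BAX (chr19:48955213-48955232, plus strand, 2 mismatches) was in intron 1. The closest run at BBC3 (chr19:47231320-47231339, minus strand) lay 130 bases upstream of the MANE Select start, within the annotated gene. It had 3 mismatches, past the limit, and is shown for comparison. With up to 3 mismatches allowed, 21.3% of tested genes held a run in the same window.
CDKN1A: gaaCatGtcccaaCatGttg
MDM2: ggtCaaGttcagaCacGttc
ZMAT3: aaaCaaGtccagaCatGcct
CCNG1: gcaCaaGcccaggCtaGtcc
SPATA18: ggaCatGtgtgtaCatGccc
AEN: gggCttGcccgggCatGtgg
PLK2: aaaCatGcctggaCttGccc
BAX: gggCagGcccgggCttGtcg
BBC3: ctgCaaGtcctgaCttGtcc

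**Figure D1:**
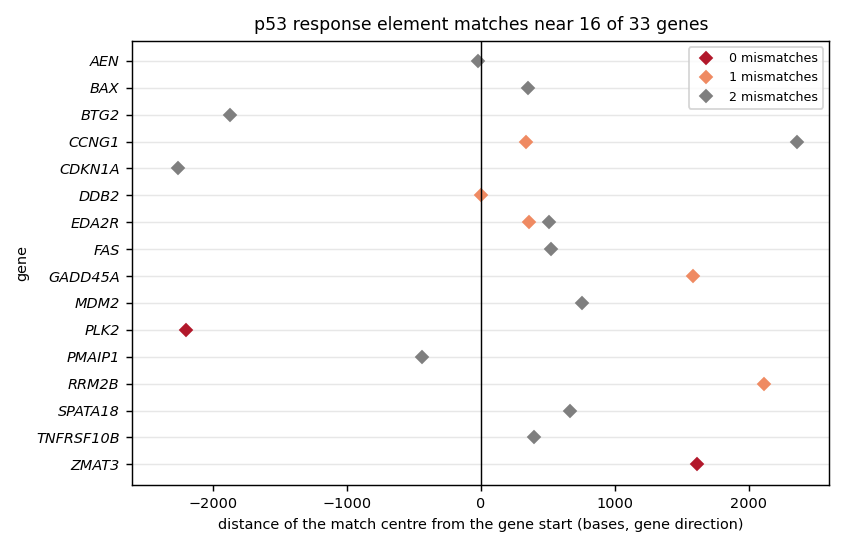
Position of each p53 response element match (diamonds, coloured by the number of mismatches) relative to the start of its gene, in bases in the direction of the gene, for the 16 genes with a match of at most 2 mismatches. PLK2 and ZMAT3 held matches without a mismatch, and the AEN and DDB2 matches sat closest to the start.

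The comparison of siMED12 with siCtrl asks how the p53 programme stood after MED12 was lowered. Most of the 33 genes were slightly lower in siMED12, fewer were higher, and the changes were small. The median log2 fold change was -0.14, with 23 genes below 0 and 10 above, while the median over all tested genes was 0.02 (8524 below 0 and 9377 above). The largest changes in either direction were a lower BBC3, which encodes the BH3-only protein PUMA, and a higher TP53INP1, which encodes a stress protein linked to autophagy and cell death.

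In the fit with the treatment alone, 0 of the 33 genes were called in either direction at an adjusted p below 0.05 (edgeR quasi-likelihood test, Benjamini-Hochberg adjustment over all tested genes). The background in that fit was itself small, since 0.151% of tested genes were called higher and 0.413% lower. Adjusted p ranged from 0.13 to 0.987 over the 33. At an unadjusted p below 0.05, AEN and TP53INP1 passed, or 6.06% of the members against 15.6% of all tested genes. DESeq2's Wald test called TP53INP1 (adjusted p = 0.0384), or 3.03% of the members against 4.47% of all tested genes.

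With replicate number as a block, 10 of the 33 genes fell (30.3%, against 16.2% of tested genes called lower) and 4 rose (12.1%, against 17.1% called higher). BBC3, BCL2L1, PLK3, FDXR, AEN, ZMAT3, CDKN1A, CCNG1, MDM2 and PERP fell. TP53INP1, SPATA18, APAF1 and RRM2B rose. The other 19 genes had blocked adjusted p of 0.0501 to 0.972. All 14 calls kept their direction in 6 blocked alternatives, and 7 of them (BBC3, BCL2L1, AEN, CDKN1A, CCNG1, PLK3 and TP53INP1) stayed past the threshold in all 6.

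**Figure D2:**
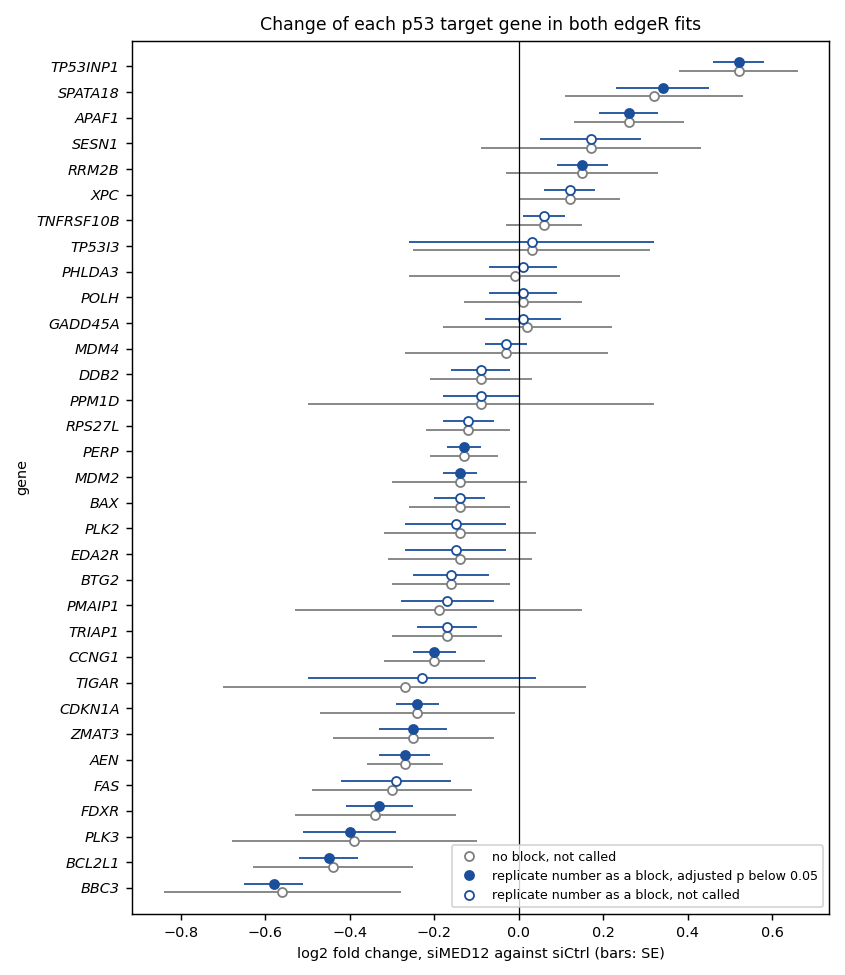
Log2 fold change of each of the 33 genes in siMED12 against siCtrl, with bars for the SE, from the fit with the treatment alone (grey) and the fit with replicate number as a block (blue); filled points have an adjusted p below 0.05. The estimates of the fits nearly coincide, the blocked bars are shorter, and only blocked points are filled, 10 to the left of 0 and 4 to the right.

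Counted without a model, few genes had groups that stood apart. AEN and PERP were lower in every siMED12 library than in any siCtrl library (6.06% of the members, against 10.9% of tested genes). TP53INP1 was the single member higher without overlap (3.03%, against 11.2%). Within pairs of the same replicate number, 16 genes were lower in all 3 pairs (48.5%, against 27.0% of tested genes), and 5 were higher in all 3 (15.2%, against 30.6%). The 16 were the 10 genes that fell in the blocked fit together with BAX, EDA2R, FAS, PPM1D, RPS27L and TRIAP1. The 5 were the 4 that rose together with XPC.

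**Figure D3:**
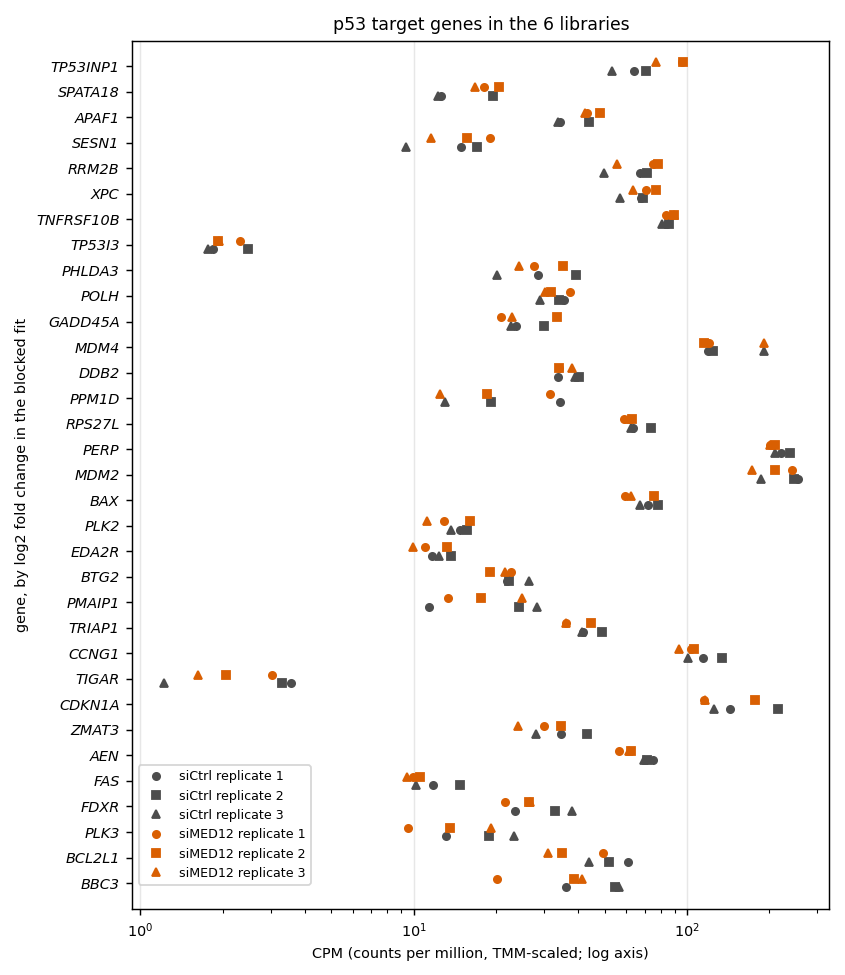
CPM of the 33 genes in the 6 libraries on a log axis, ordered by log2 fold change in the blocked fit; grey marks are siCtrl, orange marks siMED12, and the marker shape gives the replicate number. Levels run from about 1 CPM for TIGAR to over 200 CPM for MDM2 and PERP, and for all but AEN, PERP and TP53INP1 the groups overlap.

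Of the 3 genes that restrain p53, MDM2 fell in the blocked fit and MDM4 and PPM1D did not pass. MDM2 (ENSG00000135679.27, chr12:68808177-68845544), the ubiquitin ligase that degrades p53, was at 254, 246 and 187 CPM after siCtrl and 243, 210.2 and 173 CPM after siMED12. The groups overlapped, while the change within the 3 pairs was -4.50%, -14.5% and -7.73%. Its log2 fold change was -0.14 ± 0.16 (SE; adjusted p = 0.757) with treatment alone and -0.14 ± 0.04 (0.0119) with the block, by edgeR. The blocked call was lost with scaling by library size alone (adjusted p = 0.0653, edgeR) and without replicate 2 (adjusted p = 0.0543, edgeR). MDM2 exons overlap those of other genes by 918 bases on the opposite strand and 439 on the same strand. MDM4, which binds p53 and blocks its activation domain, was at 145 ± 40.2 CPM in siCtrl and 142 ± 43.1 CPM in siMED12 (mean ± SD, n = 3), and its sign near 0 changed with the scaling. PPM1D, a phosphatase that switches off the damage response, was at 34.4, 19.1 and 13 CPM after siCtrl and 31.4, 18.5 and 12.5 CPM after siMED12. Its 3 pairs differed far more from each other than the siRNA groups did.

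Of 6 genes for cell cycle and growth arrest, CDKN1A, CCNG1 and PLK3 fell in the blocked fit and GADD45A, BTG2 and PLK2 did not pass. CDKN1A (ENSG00000124762.14, chr6:36676460-36687337) encodes p21, the inhibitor of cyclin-dependent kinases that carries much of the p53 arrest. It was at 143, 215 and 125 CPM after siCtrl and 115, 177 and 116 CPM after siMED12. Replicate 2 was highest in both groups, the groups overlapped, and the change was -0.24 ± 0.23 (log2, SE; adjusted p = 0.697) without the block. With the block it was -0.24 ± 0.05 (adjusted p = 0.000133, edgeR). In the treatment-only fit without siCtrl replicate 2, the CDKN1A change was 0.02. CDKN1A exons share 146 bases with DINOL on the opposite strand.

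CCNG1, which encodes cyclin G1, a partner of protein phosphatase 2A, was at 114, 134 and 101 CPM after siCtrl and 103, 106 and 93.7 CPM after siMED12. The ranges overlapped, and the blocked log2 fold change was -0.20 ± 0.05 (SE; adjusted p = 0.00228, edgeR; 0.472 without the block). PLK3, a stress-responsive polo-like kinase, was at 13.1, 18.8 and 23.3 CPM after siCtrl and 9.50, 13.6 and 19.2 CPM after siMED12. Its change within pairs was -27.7%, -27.7% and -17.5%, among the larger ones here, while the groups overlapped. The blocked log2 fold change of PLK3 was -0.40 ± 0.11 (SE; adjusted p = 0.00336, edgeR; 0.597 without the block). GADD45A, a damage-induced arrest and repair protein, was at 25.3 ± 3.94 CPM in siCtrl and 25.7 ± 6.75 CPM in siMED12 (mean ± SD, n = 3), with a sign that changed with the scaling. BTG2, an antiproliferative regulator of mRNA decay, averaged 23.5 and 21.0 CPM in siCtrl and siMED12. PLK2, a polo-like kinase of centriole duplication, averaged 14.7 and 13.4 CPM.

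The 15 apoptosis genes moved in both directions, with 4 that fell and 3 that rose in the blocked fit and 8 that did not pass. BBC3 (chr19:47220822-47232766) encodes PUMA, which neutralises the survival proteins of the BCL2 family. It was at 36.1, 54.3 and 56.5 CPM after siCtrl and 20.1, 38.5 and 41.1 CPM after siMED12. Replicate 1 was lowest in both groups, so the groups overlapped although every pair was lower in siMED12, by changes of -44.1%, -29.0% and -27.3%. The log2 fold change of BBC3 was -0.56 ± 0.28 (SE; adjusted p = 0.384) with treatment alone and -0.58 ± 0.07 (5.9e-08) with the block, by edgeR. BCL2L1 (chr20:31664452-31723989), whose main product is the survival protein BCL-XL, was at 60.7, 51.6 and 43.9 CPM after siCtrl and 49.2, 34.8 and 31.0 CPM after siMED12. The groups overlapped in this gene too, and the blocked change was -0.45 ± 0.07 (log2, SE; adjusted p = 1.9e-06, edgeR; 0.322 without the block). A death-promoting gene and a survival gene thus fell in the same libraries. BCL2L1 exons share 1735 bases with ABALON on the opposite strand.

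AEN and PERP fell with no overlap between the groups. AEN (chr15:88621337-88632281), a nuclease that acts on DNA in apoptosis, was at 74.8, 71.4 and 69.7 CPM after siCtrl and 56.4, 62.2 and 61.1 CPM after siMED12. It had the narrowest range between replicate numbers of the 33 genes, and its log2 fold change was -0.27 ± 0.09 (SE; adjusted p = 0.217) with treatment alone and -0.27 ± 0.06 (0.000491) with the block, by edgeR. PERP (chr6:138088505-138107419), a membrane protein of desmosomes and of p53-dependent death, was at 220.4, 238 and 210.5 CPM after siCtrl and 201, 210.0 and 201 CPM after siMED12. The groups stood apart by little, and the blocked change was -0.13 ± 0.04 (log2, SE; adjusted p = 0.0192, edgeR; 0.539 without the block). The call for PERP was lost with scaling by library size alone (adjusted p = 0.099, edgeR) and without replicate 1 (adjusted p = 0.0535, edgeR).

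BAX, which forms pores in the outer mitochondrial membrane, was at 72.2, 78.3 and 67.1 CPM after siCtrl and 59.5, 75.4 and 62.6 CPM after siMED12. The groups overlapped, and the change of -0.14 ± 0.06 in the blocked fit (log2, SE) did not pass (adjusted p = 0.0552, edgeR; 0.648 without the block). BAX passed under the block with DESeq2 size factors and without replicate 2. PMAIP1, which encodes the BH3-only protein NOXA, was at 11.4, 24.3 and 28.2 CPM after siCtrl and 13.3, 17.6 and 25.0 CPM after siMED12, higher in 1 pair and lower in the others. It passed only in the blocked fit without replicate 1. FAS, the death receptor of FAS ligand, averaged 12.3 CPM in siCtrl and 9.97 CPM in siMED12, and TNFRSF10B, a receptor of TRAIL, averaged 84.0 and 87.6 CPM. Neither receptor passed in either fit. TRIAP1, an inhibitor of apoptosis, averaged 43.9 and 38.9 CPM (blocked adjusted p = 0.0501, edgeR). Like BAX, TRIAP1 passed under the block with DESeq2 size factors and without replicate 2. EDA2R, a receptor of ectodysplasin A2, averaged 12.6 and 11.4 CPM. TP53I3, an oxidoreductase, was low with 2.03 and 2.06 CPM, or 29 to 39 counts per library. PHLDA3, an inhibitor of AKT signalling, averaged 29.3 and 29.0 CPM, and its sign changed with the scaling.

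TP53INP1 was the member that rose the most. TP53INP1 (ENSG00000164938.14, chr8:94925972-94949378) was at 63.8, 70.7 and 53.3 CPM after siCtrl and 96.1, 96.3 and 77.0 CPM after siMED12. Every siMED12 library was above every siCtrl library, with increases of 50.7%, 36.2% and 44.3% within the 3 pairs. The log2 fold change was 0.52 ± 0.14 (SE; adjusted p = 0.13) with treatment alone and 0.52 ± 0.06 (9.59e-10) with the block, by edgeR. TP53INP1 exons share 225 bases with NDUFAF6 on the opposite strand.

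APAF1 and SPATA18 rose by less, and only in the blocked fit. APAF1 (chr12:98645290-98735433), the scaffold of the apoptosome, was at 34.3, 43.9 and 33.6 CPM after siCtrl and 43.1, 47.9 and 42.3 CPM after siMED12. The pairs were 25.8%, 9.22% and 26.0% higher, the groups overlapped, and the blocked change was 0.26 ± 0.07 (log2, SE; adjusted p = 0.00372, edgeR; 0.417 without the block). SPATA18, a protein of mitochondrial quality control, was at 12.6, 19.5 and 12.3 CPM after siCtrl and 18.1, 20.5 and 16.7 CPM after siMED12. The siCtrl replicate 2 lay within the siMED12 range, and the blocked change of SPATA18 was 0.34 ± 0.11 (log2, SE; adjusted p = 0.0148, edgeR). Without replicate 1 the adjusted p was 0.084 for APAF1 and 0.222 for SPATA18 (edgeR with the block), and SPATA18 also lost its call without replicate 3 (0.0828) and in DESeq2 with the block (0.107).

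**Figure D4:**
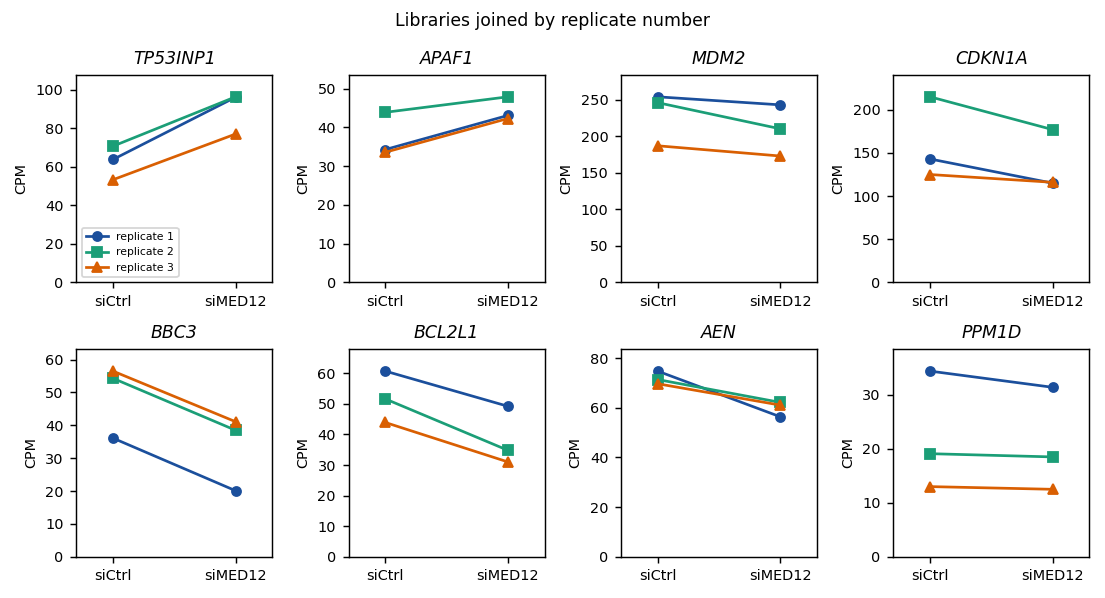
CPM of 8 of the genes in siCtrl and siMED12, with lines joining libraries of the same replicate number and axes that start at 0. The 3 lines run up for TP53INP1 and APAF1 and down for MDM2, CDKN1A, BBC3, BCL2L1 and AEN, while the lines of PPM1D are far apart and nearly level.

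Of 4 genes for DNA repair and nucleotide supply, RRM2B rose in the blocked fit and DDB2, XPC and POLH did not pass. RRM2B, the p53-inducible subunit of ribonucleotide reductase, was at 67.4, 71.2 and 49.7 CPM after siCtrl and 74.8, 78.6 and 55.5 CPM after siMED12. The groups overlapped widely, but the 3 pairs agreed closely at 10.9%, 10.4% and 11.6% higher, and the blocked change was 0.15 ± 0.06 (log2, SE; adjusted p = 0.0403, edgeR; 0.759 without the block). RRM2B lost its call in DESeq2 with the block (adjusted p = 0.192) and without any 1 of the replicate numbers (0.117 to 0.205, edgeR). DDB2 and XPC, which recognise damage in nucleotide excision repair, averaged 37.6 and 64.6 CPM with siCtrl, against 35.3 and 70.4 CPM with siMED12. XPC was higher in all 3 pairs (blocked adjusted p = 0.094, edgeR) and passed only under the block with scaling by library size alone. POLH, a polymerase that copies past ultraviolet lesions, averaged 32.9 and 33.1 CPM.

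Of 5 genes for metabolism, redox control and other roles, FDXR and ZMAT3 fell in the blocked fit. FDXR, the mitochondrial ferredoxin reductase, was at 23.4, 33 and 37.8 CPM after siCtrl and 21.5, 26.3 and 26.7 CPM after siMED12. The groups overlapped, the pairs changed by -8.26% to -29.4%, and the blocked log2 fold change was -0.33 ± 0.08 (SE; adjusted p = 0.0022, edgeR; 0.448 without the block). Without replicate 3 the adjusted p of FDXR was 0.0978 (edgeR with the block). ZMAT3, an RNA-binding regulator of splicing, was at 34.6, 43 and 27.9 CPM after siCtrl and 30.0, 34.6 and 24.0 CPM after siMED12. The groups overlapped, the pairs were lower by similar amounts (-13.4%, -19.5% and -13.9%), and the blocked change was -0.25 ± 0.08 (log2, SE; adjusted p = 0.0102, edgeR; 0.603 without the block). ZMAT3 lost its call in DESeq2 with the block (adjusted p = 0.0699) and without replicate 2 (0.0595, edgeR). RPS27L, a ribosomal protein paralog, averaged 66.5 and 61.1 CPM, and SESN1, a sestrin that restrains growth signalling, averaged 13.8 and 15.4 CPM. TIGAR, a phosphatase that diverts glucose from glycolysis, averaged 2.69 and 2.23 CPM, and its exons share 1711 bases with another gene of the same strand.

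Per kilobase of the MANE Select transcript, BAX had the highest siCtrl level of the 33 with 91.2 CPM per kb, ahead of CDKN1A with 76.1, PERP with 53.1 and CCNG1 with 47.6. MDM2 stood at 30.6 CPM per kb although its CPM of 229, not divided by length, was the highest. BBC3 was at 26.5 CPM per kb in siCtrl and 18.0 in siMED12. At the low end were SESN1 with 2.43, TP53I3 with 1.23 and TIGAR with 0.328 CPM per kb.

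For most of these genes the range between replicate numbers was larger than the mean change between siRNA groups. The range between the 3 replicate numbers, on log2 of CPM + 0.5, had a median of 0.36 over the 33 genes, while the median absolute change with treatment was 0.15. For 30 of 33 genes (90.9%) the range between numbers was larger than the treatment change, against 12972 of 17901 tested genes (72.5%). The exceptions were PERP, TP53INP1 and AEN. The measures are unlike, as the range of 3 values tends to exceed an absolute mean change even without a replicate effect. The count thus does not rank replicate number against treatment. PPM1D had the widest range (1.33), followed by PMAIP1 (1.08), TIGAR (0.99), PLK3 (0.89) and BBC3 (0.83), and AEN had the narrowest (0.04). The share of counts from mitochondrial genes also followed the number, with 4.43%, 6.31% and 10.0% in siCtrl 1 to 3 and 4.79%, 6.03% and 10.1% in siMED12, and its part in the levels of these genes was not tested. The labels do not say what a replicate number stands for, and a legend of the study calls a heatmap of these cells corrected for batch without naming the batch.

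**Figure D5:**
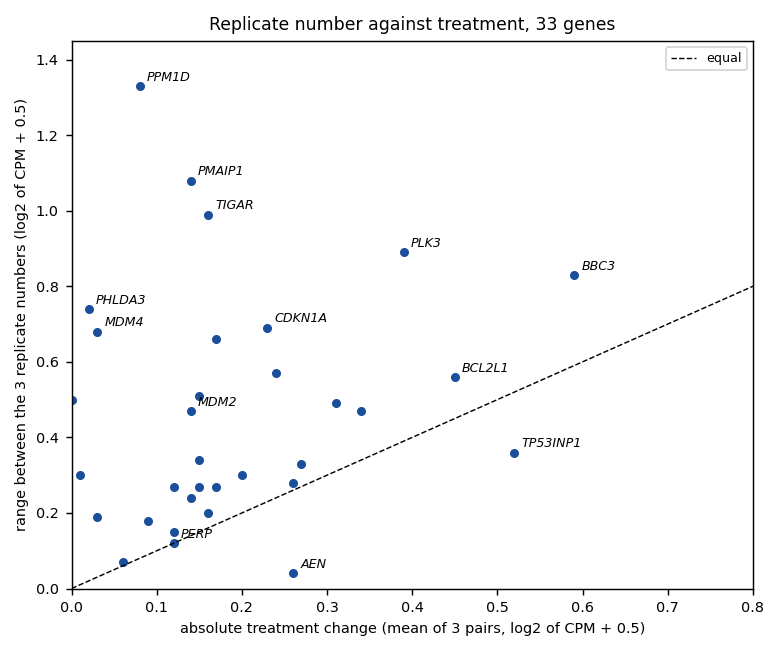
Range between the 3 replicate numbers against the absolute change with treatment for the 33 genes, both on log2 of CPM + 0.5; the dashed line marks equality. All points but those of PERP, TP53INP1 and AEN lie above the line, and PPM1D and PMAIP1 lie highest.

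Response element matches were found among genes that rose, genes that fell and genes without a call. A match with at most 2 mismatches was held by 2 of the 4 genes that rose in the blocked fit (RRM2B and SPATA18), 5 of the 10 that fell (AEN, CCNG1, CDKN1A, MDM2 and ZMAT3) and 9 of the 19 without a call. PLK2, whose match had no mismatch, was among the 19. TP53INP1 and BBC3, which had the largest changes, held no match within these limits. With groups this small the counts are given as a description only.

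Other p53 genes from lists outside the 33 gave a mixed picture. Of 60 further p53 targets, 53 were tested, with a median log2 fold change of -0.00. In the treatment-only edgeR fit, 2 fell (3.77%, against 0.413% of all tested genes) and 0 rose, and 16 had an unadjusted p below 0.05 (30.2%, against 15.6%). With the block, 14 fell (26.4%, against 16.2%) and 11 rose (20.8%, against 17.1%). GDF15, a secreted stress cytokine, was at 80.3, 107 and 54.5 CPM after siCtrl and 29.6, 33.1 and 26.0 CPM after siMED12. Its groups did not overlap. The log2 fold change of GDF15 was -1.44 ± 0.23 (SE; adjusted p = 0.0442) with treatment alone and -1.42 ± 0.08 (6.05e-18) with the block, by edgeR. Both were larger in size than that of any of the 33 genes. The other gene that fell was SFN, an inhibitor of mitotic entry, named here after its values were seen, with 374 ± 18.3 CPM in siCtrl and 235 ± 12.9 CPM in siMED12 (mean ± SD, n = 3; log2 fold change -0.67, adjusted p = 0.0297, edgeR). In the blocked fit GLS2, a mitochondrial glutaminase, and STEAP3, a metalloreductase, also fell, from 24.2 to 14.2 and from 22.9 to 13.6 CPM. ANKRA2, SYTL1 and SUSD6 rose in that fit, with log2 fold changes of 0.45, 0.43 and 0.37 in the treatment-only fit, where they did not pass.

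Of 30 genes on a list of regulators in the p53 pathway, 29 were tested, and 0 passed in the treatment-only edgeR fit, with 5 at an unadjusted p below 0.05 (17.2%, against 15.6% of all tested genes). With the block 7 fell (24.1%, against 16.2%) and 3 rose (10.3%, against 17.1%). PRMT5, an arginine methyltransferase that modifies p53, went from 140.1 to 106 CPM, CHEK2, a kinase that phosphorylates p53, from 39.2 to 32.2 CPM, and RPL5, a ribosomal protein that inhibits MDM2, from 360.1 to 304 CPM. TP53BP1, CREBBP and EP300, which bind p53 or acetylate it, rose in the blocked fit, from 96.6 to 113, from 103 to 117 and from 154 to 176 CPM. Their adjusted p without the block were 0.239, 0.79 and 0.778 (edgeR). The groups stood apart for PRMT5, CHEK2 and TP53BP1 and overlapped for RPL5, CREBBP and EP300. CREBBP was also mixed within its pairs, with changes of 19.0%, -0.142% and 24.4%. Of 28 genes of the apoptosis machinery that are not on the list of 33, 26 were tested, and 0 passed in the treatment-only edgeR fit, with 5 at an unadjusted p below 0.05 (19.2%, against 15.6% of all tested genes). With the block 7 rose (26.9%, against 17.1%) and 4 fell (15.4%, against 16.2%). BMF, a BH3-only protein, rose from 18.5 to 26.6 CPM in the blocked fit, and CFLAR and BIRC2, which inhibit caspase activation, rose from 56.4 to 71.3 and from 48.9 to 61.4 CPM. HTRA2 and CYCS, proteins released from mitochondria in apoptosis, fell from 46.2 to 34.9 and from 570.5 to 463 CPM, and BIRC5, which encodes survivin, fell from 186 to 165 CPM.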

How the data were processed

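Poly(A) RNA of 6 libraries was sequenced. Strand-specific libraries were made by a company (per the labels). According to the methods, alignment and counting used the Rsubread package, GRCh38 and a Gencode annotation. The Rsubread version, the use of strand in counting and the handling of reads with several matches were not given in the sources used here, so overlapping genes and close paralogs are uncertain. The deposited counts are raw whole reads per gene (62703 genes). The deposited log2 CPM values were recomputed from the counts (edgeR filter, TMM, prior count 2) to within 4.96e-09 and were used in 1 alternative.

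Counts were tested with edgeR 4.0.16 in R 4.3.3 (filterByExpr on the groups, TMM, quasi-likelihood F-test, two-sided, Benjamini-Hochberg over 17901 genes, threshold 0.05), with treatment as the only term, as the study's methods name edgeR and no block. A figure legend mentions batch correction for a heatmap of 22Rv1 cells without naming the batch, so the authors' own fit may have held one. Replicate numbers come from the labels. The deviations of same-numbered libraries from their group means correlated at 0.532, 0.373 and 0.643, so all 3 pairs passed 0.1 and the numbers were taken to pair the libraries. Different numbers gave -0.46 to -0.0233. The 3 deviations of a group sum to 0, so negative values there follow from the positive ones and add no evidence. Blocked adjusted p are printed for each member called with the block, and blocked counts for each list. Many of the other named genes have mean levels only. SEs were derived from the fold change and F. CPM are TMM-scaled.

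DESeq2 1.42.0, limma 3.58.1 on the log2 CPM values, other scalings and filters, and leaving out each library were alternatives. The fits were tested on simulated data. The pair of libraries of 1 group closest to each other still differed by more than counting noise (chi-square per degree of freedom at least 11.2), so none was a repeat deposit. The response element search and coordinates used the GRCh38 reference and Gencode annotation, which matched 99.9% of counted genes.

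The members and lists were chosen with earlier results of these data known. Values in every library are given for members past an adjusted p of 0.05 in either fit and for MDM2, CDKN1A, BAX and BBC3. Those of PPM1D and PMAIP1 are also given, chosen after their values were seen. From each other list at most 3 genes per direction are named, by size of log2 fold change among those past the threshold in either fit with a mean of at least 10 CPM, with GDF15 always. 1 further gene of that rule and 1 marker are not reported here. Intervals and tests cover these libraries only.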

Additional observations from a re-analysis of the deposited data

How the results depend on the processing

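The median log2 fold change of the 33 genes stayed below 0 in all alternatives (-0.18 to -0.08), and in no alternative was a called value reversed. Over all tested genes, 27 were higher and 74 lower. The counts were 31 and 49 with library size only, 319 and 482 with DESeq2's Wald test, and 186 and 290 with no filter beyond 1 count, while a mean of at least 1 CPM gave 118 lower. With replicate number as a block they were 3058 and 2908, with scaling by library size under the block 3807 and 2413, with DESeq2 size factors under the block 2960 and 3069, and with DESeq2's Wald test under the block 1780 and 2063. Leaving out 1 library gave 0 to 8 higher and 0 to 37 lower, and leaving out 1 pair under the block 2070 (without replicate 1), 2199 (without replicate 2) and 2375 (without replicate 3) higher, and 2578, 2654 and 2579 lower.

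Of the 33 genes, 0 were called without the block, 1 was higher with DESeq2's Wald test and 1 with no filter. With the block 4 were higher and 10 lower. Under the block the counts were 5 and 8 when only library size scaled the counts, 4 and 12 under DESeq2 size factors, and 2 and 9 with DESeq2's Wald test. Blocked fits without 1 replicate number gave 1 to 3 higher and 9 to 10 lower, and fits without 1 library and without the block gave 0. The sign of GADD45A, PHLDA3 and MDM4 changed with the scaling, and 9 members changed sign in the treatment-only fit when 1 library was left out.

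Of the further p53 targets, 1 was lower with library size only, and 11 were higher and 14 lower with the block. The block gave 3 higher and 7 lower among the p53 pathway regulators, and 7 and 4 in the apoptosis machinery. The share of members with a response element match was 21.2% with at most 1 mismatch, 72.7% with 3 (21.3% of tested genes) and 30.3% within 1000 bases, as looser and tighter searches must give. The cause of the other shifts was not tested. With 3 libraries a group, small changes can be missed, most of all in genes as low as TIGAR and TP53I3, at about 2 CPM.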
